A study of Mus musculus with 10 samples.

Results

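Blood stem cells are held in the bone marrow by receptors on their surface, and 10 genes for such receptors are described here: Cxcr4, the integrin subunit genes Itga4, Itga5, Itga6 and Itgb1, the immunoglobulin family genes Vcam1, Alcam and Jam3, and Cd44 and Cdh2. They were chosen by name, and every probe set that the platform annotation paired with 1 of these symbols was taken, which gave 34 probe sets of 10 genes out of 18193 genes with a named probe set. Of the 10 genes, 8 were bright enough to be tested, with 22 of the 34 probe sets, among 12580 tested genes. Vcam1 fell in the test by gene, and the other 7 did not pass. The Vcam1 call was near the threshold, and its probe set did not pass in the test by probe set. It also depended on the processing and on single arrays. Of all tested genes 5.52% passed in either direction, so 1 call among 8 is not set apart from the background.

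RNA came from LSK/CD48- cells of adult marrow, a sorted fraction enriched for haematopoietic stem cells. The 5 Mll-deficient arrays came from Mll F/F mice with Mx1-cre. These have floxed alleles of Mll (Kmt2a, a histone H3 lysine 4 methyltransferase gene) and an interferon-inducible cre. The 5 control arrays came from Mll F/F mice with no cre. All mice were female, 8 weeks old and of the B6.SJL-Ptprca Pep3b/BoyJ background, and both groups received 3 injections of the interferon inducer pI:pC, of 10 µg per gram plus 50 µg, at intervals of 48 hours, before marrow was taken on day 6. Each Affymetrix 430 2.0 array was made from the amplified RNA of 1500 to 10000 cells, and the labels call the arrays of a group biological replicates. Because the control mice lacked cre, cre itself and loss of Mll cannot be told apart, and both groups were measured under interferon induction.

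In the marrow, stromal and endothelial cells secrete Cxcl12, whose receptor Cxcr4 draws stem cells in and keeps them there. Integrins are pairs of an alpha and a beta subunit: alpha 4 with beta 1 binds Vcam1 and fibronectin, alpha 5 with beta 1 binds fibronectin, and alpha 6 with beta 1 binds laminin. Vcam1 is best known as the ligand of alpha 4 integrins on stroma, endothelium and macrophages and is also carried by blood stem cells themselves. Cd44 binds hyaluronan, Alcam binds Cd6 and itself, Jam3 binds Jam2, and Cdh2 is the N-cadherin gene.

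Mll recognises unmethylated CpG dinucleotides. For 6 of the 10 genes (Cxcr4, Itga4, Itga5, Itgb1, Alcam and Cd44) the start was taken from a RefSeq table of promoters on the GRCm38.p6 build. The starts of the other genes were not examined. In the 250 bases before the start, CG was counted on the gene's strand, which gives the same count on the other strand. There were 22 CG in Alcam, 21 in Itgb1, 19 in Cxcr4, 11 in Itga5, 6 in Itga4 and 5 in Cd44, where the median of 32851 windows was 6 and 92.1% held at least 1. Alcam held more CG than 85.2% of the windows did and Cd44 more than 44.4%. The windows of both, as the richest and the poorest of the 6, and of Cxcr4, the homing receptor, are given 5′ to 3′ with each CG in capitals.
Alcam, chr16:52453082-52453331, minus strand: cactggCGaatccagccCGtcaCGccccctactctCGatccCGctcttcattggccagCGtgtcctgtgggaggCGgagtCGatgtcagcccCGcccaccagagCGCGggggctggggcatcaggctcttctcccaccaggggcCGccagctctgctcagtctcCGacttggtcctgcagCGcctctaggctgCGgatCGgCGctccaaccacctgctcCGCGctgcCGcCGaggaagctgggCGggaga
Cd44, chr2:102901666-102901915, minus strand: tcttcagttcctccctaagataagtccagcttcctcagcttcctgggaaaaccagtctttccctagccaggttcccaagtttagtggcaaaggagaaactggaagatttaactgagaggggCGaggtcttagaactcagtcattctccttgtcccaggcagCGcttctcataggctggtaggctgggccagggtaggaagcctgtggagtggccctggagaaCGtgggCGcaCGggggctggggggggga
Cxcr4, chr1:128592300-128592549, minus strand: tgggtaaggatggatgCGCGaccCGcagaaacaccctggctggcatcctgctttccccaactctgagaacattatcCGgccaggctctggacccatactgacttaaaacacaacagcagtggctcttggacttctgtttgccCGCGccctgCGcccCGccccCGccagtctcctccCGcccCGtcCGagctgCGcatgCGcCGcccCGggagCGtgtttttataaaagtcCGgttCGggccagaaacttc
These counts describe the sequence, and none of the 3 genes passed the test by gene.

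All intensities are in the arbitrary units of the deposited values, whose trimmed mean was the same on every array. The array that correlated least with its own group was control replicate 5 (mean r = 0.926, against 0.952 to 0.962 on the other arrays). It also had the highest log2 ratio of 3' to middle signal of Gapdh and Actb, a measure of RNA quality, at 5.19, where the others lay between 1.73 and 3.86. Between the groups this ratio differed by less than the spread, at 2.95 ± 1.41 for controls and 3.14 ± 0.598 for Mll-deficient arrays (SD, n = 5 each, exact permutation p = 0.810, two-sided). The targeted gene did not pass: its brighter Kmt2a probe set 1427283_at read 260.2 ± 85.8 and 216 ± 97.2, and 1452377_at read 74.7 ± 22.1 and 49.7 ± 32.0 (SD, n = 5, adjusted p = 0.736 and 0.498 with no filter). Their place relative to the deleted exons was not analysed here, and the labels are unchecked by them.

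Of the stem cell gate genes, 6 were tested and 0 passed. Kit read 126 ± 34.2 in controls and 72.3 ± 27.0 in Mll-deficient arrays (SD, n = 5, adjusted p = 0.132), and Procr read 1124 ± 562 and 538 ± 296 (adjusted p = 0.0863). Cd48, which the gate excludes, still read 109 ± 63.1 and 124 ± 41.5. Erythroid markers moved with the groups: 9 of 11 tested rose, 0 fell, and their summed intensity was 3924 to 7097 in controls and 16496 to 18433 in Mll-deficient arrays. Klf1, a transcription factor gene of red cell precursors, had the smallest p, with a difference of 3.00. Of the tested neutrophil (9), B cell (5) and T cell (2) markers 0 passed. The summed intensity of the neutrophil list was 106758 to 137084 in controls and 95711 to 179656 in Mll-deficient arrays, the highest of the marker lists. Of its 9 tested genes 7 lay above 0 and 2 below, with a median of 0.12. The part of such cells in the receptor values was not tested. In sorted bulk RNA, fewer cells of a type and less RNA per cell cannot be told apart.

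Vcam1 had a lower mean in Mll-deficient cells by both of its tested probe sets, and it passed in the test by gene but not in the test by probe set. The brightest probe set, 1448162_at, read 282, 148, 255, 187 and 244 in control replicates 1 to 5 and 115, 105, 93.8, 127 and 152 in Mll-deficient replicates 1 to 5. Only control replicate 2 (148) and Mll-deficient replicate 5 (152) crossed, so the groups overlapped by 1 array on each side. The mean was 223 ± 54.3 for controls and 118 ± 22.3 for Mll-deficient arrays (SD, n = 5 each), a difference of -0.81 ± 0.22 on the log2 scale (SE, 95% interval -1.29 to -0.34, adjusted p = 0.0441). Among all tested genes 5.52% passed in either direction and 1.76% were called lower, so 1 call among 8 tested genes is not set apart from the background.

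The Vcam1 call was fragile. With all 27022 probe sets in the fit, of which 3.28% passed, the same probe set had an adjusted p of 0.0605, and 0 of the 22 tested probe sets passed in limma, while 4 had an unadjusted p below 0.05, where 18.3% of all tested probe sets did. Leaving out any single array other than control replicate 2 ended the call (adjusted p 0.0573 to 0.119, differences between -0.90 and -0.73), and without control replicate 2 it held (-0.94, adjusted p = 0.0226). Quantile normalization, centring on array medians, having no filter and the mean of all 3 probe sets also ended it (adjusted p 0.0616 to 0.0690), the last at a smaller difference of -0.54, over 1.5 times nearer to 0. The difference kept its sign in every one of these fits. With the RNA quality ratio as a covariate it was -0.84 (adjusted p = 0.0124). That fit called more genes in general, 1618 against 694 without the covariate.

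The second tested Vcam1 probe set, 1415989_at, read 36.2, 23.3, 37.3, 15.4 and 39.2 in controls and 31.6, 16.4, 4.33, 32.6 and 6.11 in Mll-deficient arrays. These ranges overlapped widely, and its difference of -0.50 ± 0.28 did not pass (SE, adjusted p = 0.377). The third, 1451314_a_at, lay between 1.26 and 14.0 over all 10 arrays and was too dim to be tested.

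Macrophages and marrow stroma carry much Vcam1, so their markers are given beside it. Of 11 macrophage genes, 5 were tested and 0 passed. All 5 differences were below 0, with a median of -0.33 (-0.035 over all tested genes), and the summed intensity of the list was 2916 to 19954 in controls and 2610 to 9653 in Mll-deficient arrays. Csf1r made up most of that sum, with 2594 to 19208 in controls and 2346 to 9366 in Mll-deficient arrays, and its own difference was -0.085. C1qa, C1qc, Marco, Vsig4, Spic and Mrc1 were below the filter. Cd163, a scavenger receptor of macrophages, had the smallest p of that list, at 139 ± 145 and 54.9 ± 30.3 (SD, n = 5, adjusted p = 0.264). Of 13 endothelial and stromal genes 7 were tested and 0 passed, with 6 of the 7 below 0, a median of -0.16 and summed intensities of 324 to 965 and 364 to 563, and Cdh5, Emcn, Lepr, Col3a1, Postn and Adipoq were below the filter. The part of these cells in the Vcam1 difference was not tested.

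**Figure D1:**
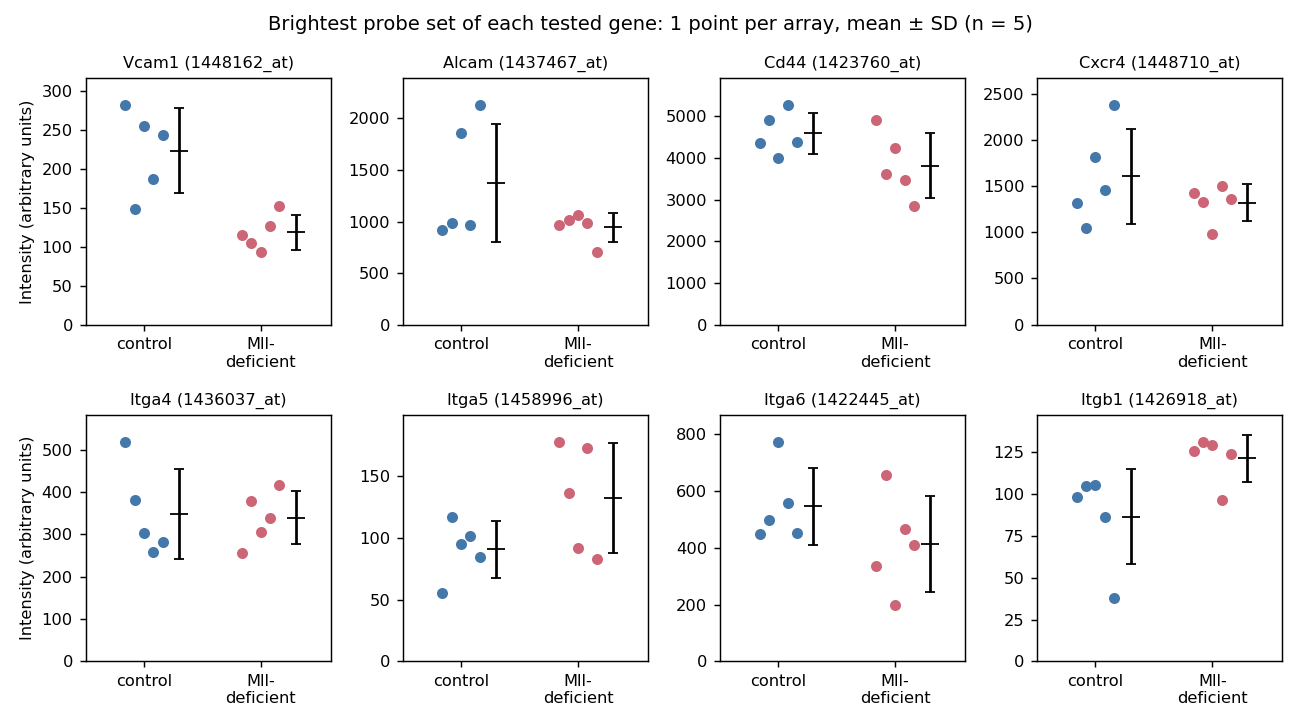
Intensity in arbitrary units (linear axis from 0) of the brightest probe set of each of the 8 tested genes, with 1 point per array in replicate order and the mean ± SD (n = 5) beside it. Vcam1 shows the clearest separation, from 223 to 118, while control replicates 3 and 5 lie above the other arrays for Alcam and control replicate 5 lies lowest for Itgb1.

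Among the genes whose pattern over the 10 arrays was most like that of Vcam1, the nearest 3 by Pearson correlation of log2 values were Dock11 (r = 0.942, Spearman rho = 0.915), Msn (r = 0.940, rho = 0.867) and Cyp39a1 (r = 0.924, rho = 0.915). They were picked as the highest of all tested genes, so no test is given, and part of the likeness is the difference between groups that they share. Without control replicates 1 and 3, the arrays farthest from the Vcam1 median, r was 0.901, 0.920 and 0.968. Msn encodes moesin, which ties membrane proteins such as Cd44 to actin. None of the 3 passed by itself, with differences of -0.59, -0.55 and -0.71 (adjusted p = 0.0589, 0.0791 and 0.0792).

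Alcam, the other immunoglobulin family gene that could be tested, did not pass. Its brightest probe set, 1437467_at, read 921, 991, 1859, 966 and 2132 in control replicates 1 to 5 and 965, 1014, 1065, 986 and 704 in Mll-deficient replicates 1 to 5. The lower mean of the Mll-deficient arrays came with 2 high controls, replicates 3 and 5, while the other 3 controls lay among the Mll-deficient values. The difference was -0.45 ± 0.25 (SE, 95% interval -0.99 to 0.09, adjusted p = 0.342), and it was -0.32 without control replicate 3 and -0.27 without control replicate 5. The other 4 Alcam probe sets had differences of -0.47, -0.47, -0.21 and 0.027, and none passed (adjusted p 0.308 to 0.974).

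Jam3, whose product binds Jam2, had 2 probe sets, 1423504_at and 1423503_at, and neither reached the filter. The first read 8.02 to 14.0 in controls and 4.15 to 30.6 in Mll-deficient arrays, and the second 4.90 to 21.5 and 3.39 to 21.5. Cdh2 was dimmer still, with 1418815_at between 0.219 and 12.7 and 1449244_at between 0.309 and 10.6 over all 10 arrays. For both genes the groups overlapped. In the fit with no filter, differences of the 4 probe sets lay between -0.20 and 0.12, and each 95% interval held 0.

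Cd44, the hyaluronan receptor, gave different values by probe set. The brightest, 1423760_at, read 4373, 4909, 4008, 5280.3 and 4393 in controls and 4917, 3628, 4233, 3477 and 2843 in Mll-deficient arrays. The groups overlapped, and the difference of -0.28 ± 0.19 did not pass (SE, 95% interval -0.68 to 0.12, adjusted p = 0.431); without Mll-deficient replicate 5 it was -0.18. A second probe set, 1434376_at, read 955, 680.0, 697, 799 and 647 in controls and 426, 573, 404, 519.9 and 429 in Mll-deficient arrays. Here every control lay above every Mll-deficient array. Groups that did not overlap, in either direction, were seen for 1 of the 22 tested probe sets and for 5.68% of all tested probe sets.

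The difference of 1434376_at was -0.66 ± 0.20 (SE, 95% interval -1.09 to -0.24), from 755 ± 125 to 470.5 ± 72.7 (SD, n = 5), and it missed the threshold (adjusted p = 0.0835). It passed with the RNA quality ratio as a covariate (-0.65, adjusted p = 0.0274) and in no other alternative, where the adjusted p ran from 0.0547 to 0.189. The covariate fit called 2433 of all tested probe sets, against 887 without it. Another probe set, 1452483_a_at, had 76.6 ± 15.5 and 77.1 ± 17.1 (difference 0.0045 ± 0.22, adjusted p = 0.994), and the fourth, 1443265_at, lay between 0.219 and 5.41 and was not tested. Cd44 is made in several splice forms, and which of them each probe set reads was not analysed here. Whether the probe sets differ from each other in their response was not tested.

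Cxcr4, the receptor of Cxcl12, had a single probe set, 1448710_at. It read 1321, 1047, 1815, 1459 and 2378 in controls and 1428, 1327, 984, 1497 and 1361 in Mll-deficient arrays. The groups overlapped, with control replicate 5 highest and Mll-deficient replicate 3 lowest. The difference of -0.24 ± 0.23 did not pass (SE, 95% interval -0.72 to 0.24, adjusted p = 0.610), and it was -0.082 without control replicate 5. The interval leaves room for a fall of up to 0.72 or a rise of up to 0.24 on the log2 scale.

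The integrin alpha subunits did not share a direction. For Itga4, the brightest probe set 1436037_at read 519, 382, 303, 258 and 281 in controls and 255, 379, 306, 339 and 416 in Mll-deficient arrays. Its difference was close to 0, at -0.013 ± 0.23 (SE, 95% interval -0.49 to 0.47, adjusted p = 0.982), and its sign turned under several alternatives. Of the other tested Itga4 probe sets, 1456498_at was at -0.19 (adjusted p = 0.733) and 1421194_at at -0.51 (adjusted p = 0.354), and the dim 1450155_at, at 8.97 ± 5.19 and 21.0 ± 8.57 (SD, n = 5), was at 0.56 (adjusted p = 0.222).

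Itga5, the fibronectin receptor subunit, read 55.5, 117, 95.4, 102 and 84.3 in controls and 178, 137, 91.4, 173 and 82.5 in Mll-deficient arrays by its brightest probe set, 1458996_at. In 3 Mll-deficient arrays it lay above every control, and in the other 2 it did not. The difference of 0.45 ± 0.26 did not pass (SE, 95% interval -0.09 to 0.99, adjusted p = 0.342). Of the dimmer Itga5 probe sets, 1423268_at was at 0.55 (adjusted p = 0.233) and 1457561_at at -0.11 (adjusted p = 0.854), and the mean over all 4 probe sets was at 0.30.

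Itga6, the laminin receptor subunit, read 449, 496, 773, 556 and 451 in controls and 335, 654, 197, 467 and 410 in Mll-deficient arrays by 1422445_at. Mll-deficient replicate 3 was lowest and control replicate 3 highest, with the other arrays interleaved. The difference was -0.46 ± 0.28 (SE, 95% interval -1.04 to 0.13, adjusted p = 0.377), and that of the other probe set, 1422444_at, was -0.10 (adjusted p = 0.899). Without Mll-deficient replicate 3 or control replicate 3 the first was -0.23 and -0.33, and the mean of both probe sets was -0.28.

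Itgb1, the beta subunit that all 3 of these alpha chains pair with, read 97.8, 105, 105, 86.3 and 37.7 in controls and 125, 131, 129, 96.2 and 124 in Mll-deficient arrays by its brightest probe set, 1426918_at. All Mll-deficient arrays but replicate 4 lay above every control, and control replicate 5, the array with the highest 3' to middle ratio, was far below the rest. The difference of 0.47 ± 0.25 did not pass (SE, 95% interval -0.05 to 0.996, adjusted p = 0.292). Without control replicate 5 it was 0.26 (adjusted p = 0.504), as the mean of all 6 probe sets 0.15 (adjusted p = 0.602), and with the quality ratio as a covariate 0.53 (adjusted p = 0.0896). The part of RNA quality in the Itgb1 values was not tested further. Of the other 5 Itgb1 probe sets, 1452545_a_at had a difference of 0.38 (adjusted p = 0.645), and 4 were below the filter.

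Over the 22 tested probe sets, 15 differences were below 0 and 7 above, with a median of -0.20, where 57.1% of all tested probe sets lay below 0 and their median was -0.069. By gene, 6 of 8 lay below 0, where 53.4% of all tested genes did. Probe sets of 1 gene share its transcripts and are not independent. The remaining 12 probe sets of the 10 genes, with intensities between 0.201 and 31.6, gave 0 calls in limma with no filter (1 had an unadjusted p below 0.05, 1451314_a_at of Vcam1) and differences between -0.31 and 0.29.

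**Figure D2:**
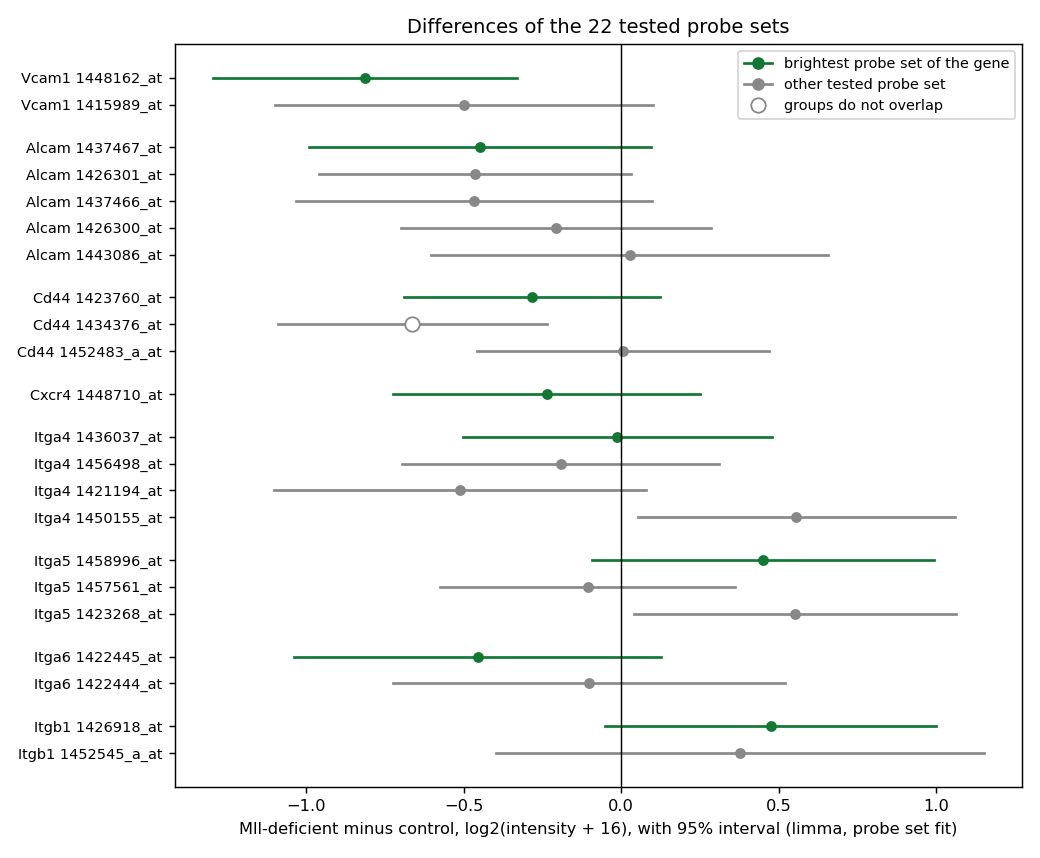
Difference between Mll-deficient and control arrays on the log2(intensity + 16) scale, with 95% intervals from the probe set fit, for the 22 tested probe sets grouped by gene; green marks the brightest probe set of a gene. The intervals of 4 probe sets leave out 0 (Vcam1 1448162_at and Cd44 1434376_at below, Itga4 1450155_at and Itga5 1423268_at above), and the open circle is the Cd44 probe set whose groups do not overlap.

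**Figure D3:**
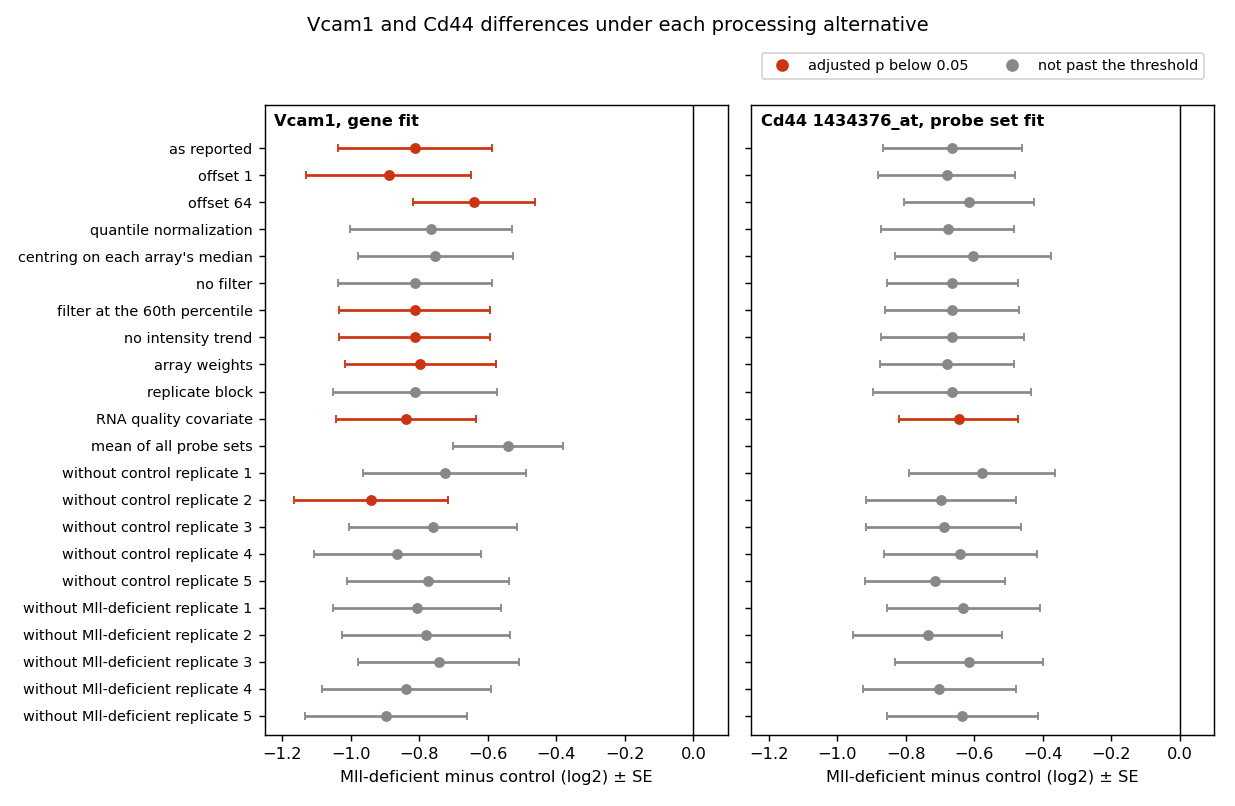
Difference ± SE of Vcam1 in the gene fit and of Cd44 1434376_at in the probe set fit, as reported and under each alternative; red points passed an adjusted p of 0.05. Vcam1 stays between -0.94 and -0.54 and loses its call in 9 of the 10 fits that leave out 1 array, and Cd44 stays between -0.74 and -0.58.

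The surroundings of these receptors were described by 10 lists of related genes, with 230 genes in all, of which 170 were tested. Of these 6 rose, 4 fell and 160 did not pass, so 5.88% were called, beside 5.52% of all tested genes. Their median difference was -0.13. The share over all lists together is near the background, and shares of single lists, from 0 to 12.5%, rest on 0 to 2 calls each and were not tested. No overlap between groups was seen for 11 of the 170 (6.96% of all tested genes) and for 0 of the 8 tested receptor genes.

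Among other integrin subunits, Itgav fell and 15 of 16 tested did not pass. Itgav, the alpha V subunit that binds vitronectin and osteopontin, read 449.7 ± 120.2 in controls and 224 ± 42.7 in Mll-deficient arrays (SD, n = 5), a difference of -0.94 ± 0.22 (SE, adjusted p = 0.0225). The mean over all its probe sets, with those below the filter, was nearer to 0 and not called (-0.24, adjusted p = 0.449). All 5 tested beta subunits lay below 0 and 0 passed, with Itgb3 at -0.48 and Itgb5 at -0.36 having the smallest p (adjusted p = 0.264 and 0.464). Itgb3 marks megakaryocytes, and of 8 tested megakaryocyte markers, Itgb3 itself among them, 0 passed. Of these 7 lay below 0, with a median of -0.39 and with summed intensities of 2237 to 5539 in controls and 1795 to 3336 in Mll-deficient arrays. Gp1bb and Vwf, at -0.84 and -1.08, had the smallest p (adjusted p = 0.207 and 0.2096), and the part of such cells in the Itgb3 values was not tested.

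Of 34 tested genes of integrin activation and adhesion signalling, 2 fell and 32 did not pass. Cytip, whose product holds back integrin adhesion through cytohesin, fell from 4228 ± 939 to 2304 ± 305 (SD, n = 5), a difference of -0.85 ± 0.20 (SE, adjusted p = 0.0188), and its probe set 1451206_s_at fell by 0.97 (adjusted p = 0.0227) while 1443928_at did not pass (-0.018, adjusted p = 0.979). Lims1, an adaptor that joins integrin-linked kinase to the cytoskeleton, fell from 1958 ± 461 to 1092 ± 167, a difference of -0.81 ± 0.21 (adjusted p = 0.0302). Its 4 other tested probe sets had differences between -0.72 and -0.46 and did not pass.

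Among 30 tested genes of Cxcr4 signalling and other homing receptors, 1 fell and 29 did not pass, with a median of -0.34. Rgs18, which speeds the shutdown of G proteins in blood cells, fell from 979 ± 233 to 516 ± 93.4 (SD, n = 5), a difference of -0.89 ± 0.22 (SE, adjusted p = 0.0269), and its other probe set did not pass (-0.46, adjusted p = 0.322). Only 8 of 23 ligand genes were tested, and Mif, a cytokine that binds Cd74 and Cxcr4, rose by 1.70 ± 0.47, with means of 539 ± 412 and 1527 ± 746 (adjusted p = 0.0427). Averaging all Mif probe sets took it to 0.39 (adjusted p = 0.2004). Cxcl12 itself read 46.0 ± 44.0 and 16.7 ± 10.8 (adjusted p = 0.276).

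Selectin ligands, junction partners and tetraspanins held 4 of the 6 rises. Podxl, a sialomucin related to Cd34, rose from 198 ± 113 to 691 ± 107 (SD, n = 5), a difference of 1.89 ± 0.32 (SE, adjusted p = 0.00294), and the mean over all its probe sets was smaller at 1.05 (adjusted p = 0.00972). The other 14 tested selectin list genes did not pass. Tjp1, the tight junction scaffold ZO-1, rose by 1.33 ± 0.26 (adjusted p = 0.00749), and 10 of the cadherin and junction list did not pass. Of 20 tetraspanins 2 rose: Tspan33, from 374 ± 164 to 1904 ± 610.2 (2.35 ± 0.32, adjusted p = 6.58e-04), and Tspan8, from 35.6 ± 22.4 to 120.0 ± 27.5 (1.49 ± 0.29, adjusted p = 0.00854). Of the 4 other tested Tspan8 probe sets 1420019_at rose (1.23, adjusted p = 0.0274), and 1420017_at, 1420018_s_at and 1455709_at, at 1.08, 0.29 and 0.60, did not pass. By gene, Tspan8 was at 0.90 with offset 64 and at 0.94 as the mean of all its probe sets, called in both. The 3 other tested Tspan33 probe sets rose, by 1.28, 2.18 and 1.58. Tspan33 is a tetraspanin of erythroid precursors, and the erythroid markers given above rose beside it.

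Of 18 partners and sheddases of Cd44, 1 rose and 17 did not pass. Mmp14, a membrane metalloprotease that can cleave Cd44, rose from 73.6 ± 32.7 to 164 ± 59.5 (SD, n = 5), a difference of 1.01 ± 0.29 (SE, adjusted p = 0.0494). Averaging its probe sets took it to 0.57 (adjusted p = 0.0662). Of 19 tested immunoglobulin family genes 0 passed in limma, with F11r, the junctional adhesion molecule JAM-A, at -0.95 (adjusted p = 0.0594) and Icam4, a red cell adhesion gene, at 0.90 (adjusted p = 0.0815) nearest.

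The calls of Tjp1, Podxl, Tspan33 and Tspan8 held in all 10 fits that left out 1 array. That of Cytip was lost without Mll-deficient replicate 1. The Itgav call was lost without control replicate 3 or Mll-deficient replicate 1, 3 or 5, that of Rgs18 without control replicate 1, 3 or 4 or Mll-deficient replicate 3 or 5, and that of Lims1 without these 5 or Mll-deficient replicate 1. Of these 10 genes, all but Mif and Mmp14 had groups that did not overlap, which held for 6.96% of all tested genes. The 10 were picked as called in these same arrays, so this is no separate support for the calls. Mif lost its call without control replicate 1, 3 or 5 or Mll-deficient replicate 1, 2, 3 or 5, and Mmp14 in all but the fits without control replicate 3 or Mll-deficient replicate 2. Centring on array medians ended the calls of Lims1, Rgs18, Mif and Mmp14, offset 1 and having no filter those of Mif and Mmp14, and dropping the intensity trend that of Mmp14.

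**Figure D4:**
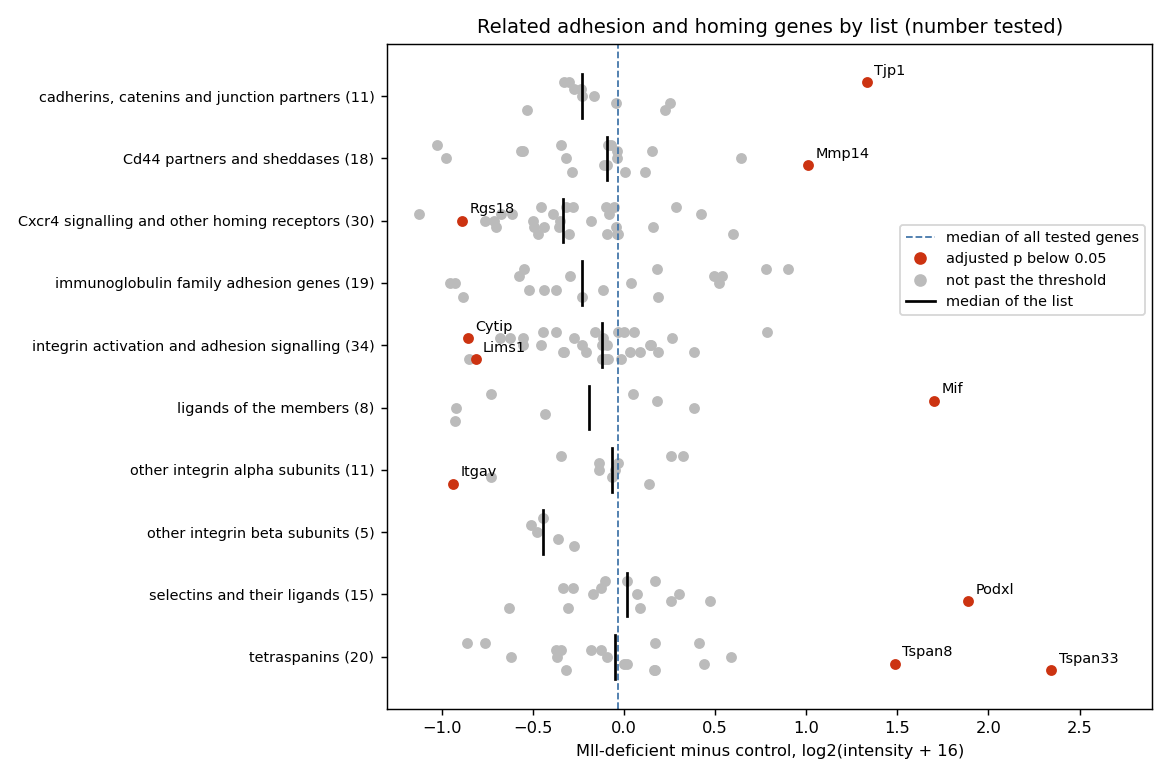
Difference between Mll-deficient and control arrays on the log2(intensity + 16) scale for each tested gene of the 10 related lists, with the number tested in brackets, the median of each list as a black bar and the median of all tested genes as a dashed line. The 10 genes past the threshold are named in red, 6 to the right and 4 to the left, with Tspan33 farthest at 2.35.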

How the data were processed

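Each array's deposited file column holds intensity on a linear scale, made by the authors with MAS5 5.0 per the submitters' processing notes; further steps are not given in the sources used here. The trimmed mean was the same on every array, and scaling to 1 constant hides differences in RNA content. For arrays, their number limits the precision. Detection calls and scanner files were not analysed here. Of 45101 probe sets, 34958 had 1 gene symbol, 932 several (not used) and 9211 none; 34754 were matched by Entrez identifier to RefSeq symbols of GRCm38.p6.

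Values were taken as log2(intensity + 16), which understates changes of dim genes. A gene was read from its brightest probe set. The filter kept features whose mean exceeded the 40th percentile over the table (12.2 intensity units). Groups were compared in R 4.3.3 with limma 3.58.1 (intensity trend, two-sided, Benjamini-Hochberg over the genes or the probe sets tested, threshold 0.05), and every adjusted p is from limma. The labels call the 5 arrays of a group biological replicates. Named genes were the 10 receptors, Kmt2a, list genes past the threshold or otherwise the 2 with the smallest p of a list, and the 3 genes most like a called receptor; Kit, Procr, Cd48 and Cxcl12 were named after their values were seen, as were Gp1bb, Vwf and Csf1r. Members and lists were chosen with earlier results of these data known. Alternatives covered the offset (1, 64), normalization, filter (none, 60th percentile), averaging of probe sets, variance trend, array weights, an RNA quality covariate, a replicate block and leaving out each array. The procedure was tested on simulated data.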

Additional observations from a re-analysis of the deposited data

Results flagged for a closer look

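In each group of 5 arrays, the gap of the most distant array to its neighbour was divided by the group's range for the 22 tested probe sets, and 4 of 44 groups exceeded the critical value of 0.71, where chance gives about 1 in 20. Itgb1 (1426918_at) gave both of its groups, with control replicate 5 at 37.7 against 86.3 for the next array (0.791 of the range on the log2 scale) and Mll-deficient replicate 4 at 96.2 against 124 (0.806). Cxcr4 (1448710_at) had Mll-deficient replicate 3 at 984 against 1327 (0.712), and Alcam (1437467_at) had Mll-deficient replicate 5 at 704 against 965 (0.759).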

How the results depend on the processing

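Of 40 differences of genes and probe sets examined, 35 kept their sign in all alternatives run, and those that turned were near 0. Itga4 (1436037_at, by gene and by probe set) was 0.047 with centring on array medians, 0.0082 with the RNA quality covariate and -0.10 to 0.14 with 1 array left out. Alcam 1443086_at was -0.0071 with offset 64, -0.025 with the covariate and -0.17 to 0.27 with 1 array left out. Cd44 1452483_a_at was -0.022 with array weights and -0.094 to 0.092 with 1 array left out, and Itga6 1422444_at -0.34 to 0.086. The count of called receptor genes, 1, was 0 with quantile normalization, median centring, no filter, the replicate block and averaged probe sets, and 0 to 1 with 1 array left out. The count of called receptor probe sets, 0, was 1 with the stricter filter, 2 with the covariate and 0 to 1 with 1 array left out. Of related list genes, 6 were called with median centring, 17 with array weights, 24 with the covariate and 5 to 14 with 1 array left out. The covariate gave 1618 called genes and 2433 probe sets, having no filter gave 588 probe sets, and leaving out 1 array gave 317 to 875 genes and 308 to 1129 probe sets. The causes were not tested.

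Deviations of same-numbered arrays correlated between -0.23 and 0.28, and 1 of 10 arrays correlated best with its own number. These correlations cannot exclude that same-numbered arrays were handled together. The highest, 0.28, was that of replicate 5, which had the highest 3' to middle ratio in both groups (5.19 in controls, 3.86 in Mll-deficient arrays). The replicate block gave 588 called genes, not among them Vcam1 (adjusted p = 0.0697) and Lims1. With 5 arrays a group, differences as small as those of most receptors lie within intervals that hold 0, and the 12 dim probe sets lie near background.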
